A study of Rattus norvegicus with 3 samples.

Results

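Genes for apolipoproteins, lipoprotein receptors and lipid efflux were examined in cultured Schwann cell precursors, as 9 genes of the 17337 listed in the table: Apoe, Apod, Vldlr, Lrp1, Scarb1, Abca1, Abcg1, Pltp and Lpl. They were chosen by name, and each matched 1 row. RNA sequencing was done on 3 libraries of 1 group, wild-type rat cells from embryonic dorsal root ganglia, left untreated and grown in a modified Sato medium based on DMEM. The labels call them primary peripheral glial cells, and the sources used here state neither strain nor embryonic day. Nothing in the labels says that the libraries came from separate cultures, so SDs and p-values cover no more than the variation among these 3 libraries, possibly technical. Total counts were 15309526, 14139074 and 14162738 in replicates 1, 2 and 3. Replicate 1 stood slightly apart from the other libraries, with long genes at higher levels.

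Apolipoproteins are the proteins that keep lipid soluble outside cells and that receptors recognise on lipoprotein particles. Receptors of the LDL receptor family take such particles up whole, the scavenger receptor SR-BI takes cholesteryl ester from HDL, and ABC transporters load cholesterol and phospholipid onto apolipoproteins at the cell surface. In peripheral nerve this traffic is known for reusing myelin cholesterol after injury, when apolipoproteins E and D accumulate in the nerve.

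The promoters of Abca1 and Apod are shown because Apod was the most abundant of the genes and Abca1 encodes the main cholesterol exporter, which liver X receptors (LXR) switch on through a pair of hormone receptor half-sites in the human and mouse promoter. RefSeq start sites on the GRCr8 build were found for 6 of the 9 genes, in 8 windows, of which 3 belong to Apoe. The sequences are the 250 bases before the start, read in the direction of the gene, at chr5:72596474-72596723 (minus strand) for Abca1 and at chr11:82935970-82936219 (plus strand) for Apod. Capitals mark matches to the motifs searched.
Abca1: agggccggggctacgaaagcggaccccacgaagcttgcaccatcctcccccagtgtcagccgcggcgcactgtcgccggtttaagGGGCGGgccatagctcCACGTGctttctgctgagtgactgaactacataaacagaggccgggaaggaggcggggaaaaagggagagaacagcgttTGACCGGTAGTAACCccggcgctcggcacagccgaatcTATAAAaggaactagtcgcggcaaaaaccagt
Apod: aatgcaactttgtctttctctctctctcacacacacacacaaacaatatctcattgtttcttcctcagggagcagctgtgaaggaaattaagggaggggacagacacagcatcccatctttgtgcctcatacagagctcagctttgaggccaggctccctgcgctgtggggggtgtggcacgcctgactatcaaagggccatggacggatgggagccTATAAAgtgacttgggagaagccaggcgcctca

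Both strands of all 33469 promoter windows of this length in the table were searched. In the Abca1 window, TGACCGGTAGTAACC, beginning at position -70 from the start, matched on the reverse strand a relaxed pattern of spaced half-sites, GGTNA followed by any 5 bases and GGTNA again, which 0.592% of windows hold. That pattern was written with the Abca1 site in view, so the match is a description. The strict direct repeat, AGGTCA followed by any 4 bases and AGGTCA again, was in 0.00299% of windows and in none of the 8. The Abca1 window also held GGGCGG at -165, CACGTG at -149 and TATAAA at -32, which are in 30.5%, 5.59% and 12.9% of windows. Apod held TATAAA at -33 and none of the other motifs. TATAAA was in no window of Apoe, Vldlr, Pltp or Lrp1, while GGGCGG was also in windows of Apoe, Vldlr and Lrp1. Within a window, no match overlapped another. A pair of the 3 Apoe windows overlap each other, and the GGGCGG matches in them are the same genomic sites.

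Levels are given as TPM, which divides counts by the listed gene length and scales each library to the same total, so that genes can be compared per length. All 9 genes were above 1 TPM by limma with Benjamini-Hochberg adjustment over 13345 genes with a count, where 78.4% of those genes were above, and each library had all 9 at 1 TPM or higher, against 60.6% of all listed genes. At the stricter level of 100 TPM or more in each library, 6 of the 9 passed, against 11.7% of all listed genes. The median of the 9 mean levels was 150.6 TPM, against 21.7 TPM over the genes tested. The 9 genes were chosen with earlier results of these data known, so these contrasts with all genes are descriptions. Together the genes made up 0.413%, 0.421% and 0.419% of all TPM in replicates 1, 2 and 3, and Apod alone was 71.1% to 71.8% of their sum. In these bulk cultures, fewer cells of a type and less RNA per cell cannot be told apart.

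**Figure D1:**
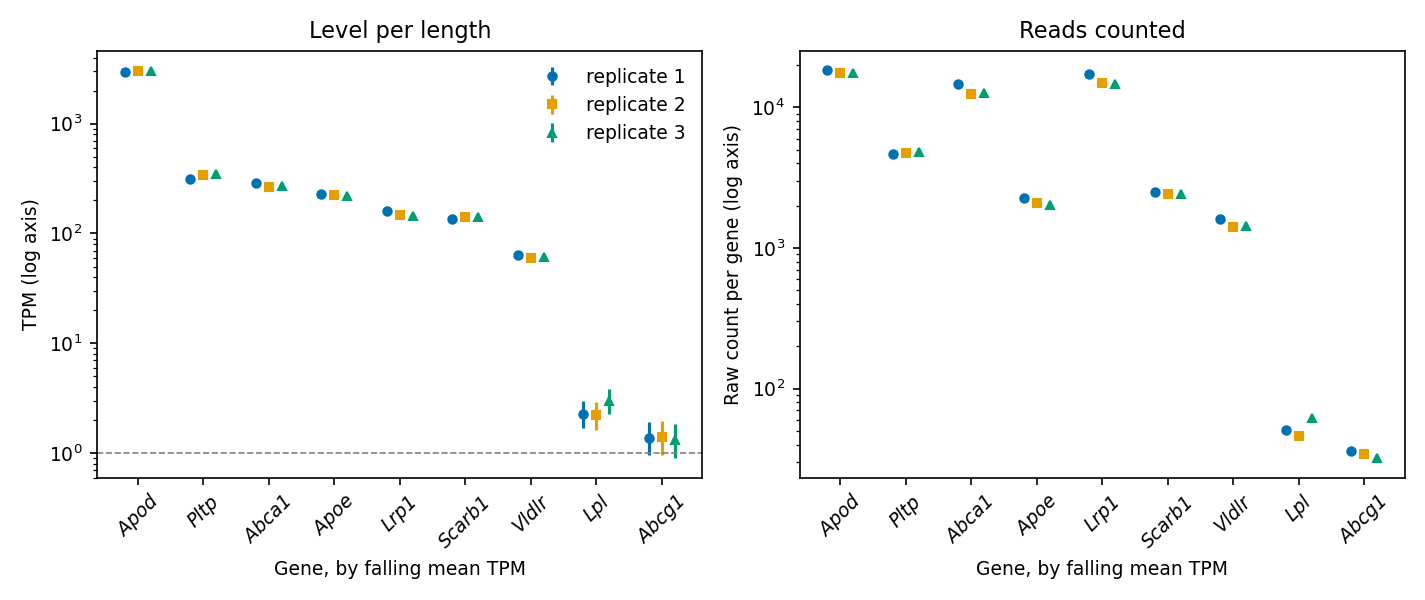
Level per length in TPM (left) and raw counts (right) of each gene in each of the 3 libraries, on log axes; bars at left are exact Poisson 95% intervals of counting error, and the dashed line is 1 TPM. Apod stands at 2935 to 3025 TPM, 6 genes lie between 60.3 and 347 TPM, and Lpl and Abcg1 lie under 3 TPM. Counts are 17478 to 18392 for Apod, 14767 to 17312 for Lrp1 and 12499 to 14558 for Abca1.

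Among the apolipoproteins, Apod dominated. Apod encodes apolipoprotein D, a lipocalin that binds small lipids such as arachidonic acid, and it was at 2935, 3025 and 2994 TPM in replicates 1, 2 and 3 (2985 ± 45.7, SD, n = 3). It ranked 17 of all listed genes in each library. Apoe encodes the ligand that carries cholesterol-rich particles to LDL family receptors, and it was at 228, 226 and 220 TPM (225 ± 4.05), rank 838 to 858. The ratio of Apod to Apoe was 12.9 to 13.6 within libraries, and their values were far from overlapping. In rn6, Apod (NCBI gene 25239) has 5 listed exon blocks at chr11:72705204-72726263 on the plus strand, and Apoe (25728) has 6 at chr1:80612894-80616820 on the minus strand.

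Most other apolipoproteins were at or near silence. Of the 15 in the list, limma called 2 above and 4 below 1 TPM (78.4% and 17.8% of all genes tested), 4 in neither direction, and 5 had no count. Clu, encoding the secreted chaperone clusterin or apolipoprotein J, was the highest at 102 ± 3.40 TPM, 2.14-fold to 2.30-fold lower than Apoe in the same library. Apom, the HDL protein that carries sphingosine 1-phosphate, was at 3.32 ± 0.952 TPM. Apoc1, Apol3, Apoa1 and Apoh averaged 1.21, 1.17, 1.03 and 0.874 TPM and did not pass in either direction. Apoa1, the main protein of HDL, had 2, 11 and 6 counts. Apob, the core protein of LDL, had no count, as had Apoa4, Apoc3, Apoc4 and Apof. Set at 3 counts, a floor that like the intervals covers counting error only, Apob would be at 0.0288 to 0.031 TPM, but the short Apoc4 at 0.864 to 0.928 TPM, so its absence is less firmly shown.

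The lipoprotein receptors were all expressed, with Lrp1 and Scarb1 at close levels and Vldlr lower. Lrp1 encodes a very large endocytic receptor for apolipoprotein E and many other ligands, known in Schwann cells for survival signalling. It was at 159, 147 and 146 TPM in replicates 1, 2 and 3 (151 ± 7.48). Its transcript, listed at 14714 bases against 848 for Apod, had 17312, 14856 and 14767 counts. Apod had somewhat more, 18392, 17644 and 17478, so most of the difference in level between Apod and Lrp1 appears only per length. Scarb1 encodes SR-BI and was at 136, 143 and 142 TPM (140 ± 3.64). Vldlr encodes a receptor for particles rich in apolipoprotein E and for reelin, and was at 64.0, 60.3 and 61.4 TPM (61.9 ± 1.87). Lrp1 exceeded Vldlr 2.38-fold to 2.49-fold in each library. In rn6, Lrp1 (299858) is at chr7:70846344-70926903 on the minus strand, Scarb1 (25073) at chr12:36694957-36761445 on the plus strand and Vldlr (25696) at chr1:245237736-245269205 on the plus strand.

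Of the 11 other LDL receptor family genes measured, 8 were above and 2 below 1 TPM by limma (78.4% and 17.8% of all genes tested). Lrp8 was not used here. Among them were Lrp10 at 174 ± 7.49 TPM and Lrp6, a Wnt coreceptor, at 58.7 ± 3.76 TPM. Sorl1, an intracellular sorting receptor, was at 1.001 ± 0.189 TPM and passed in neither direction.

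Of 8 partners of these receptors, 7 were above 1 TPM, against 78.4% of all genes tested. Pdzk1, a scaffold that holds SR-BI at the surface in liver, had no count. Reln, the secreted ligand of Vldlr, was the highest at 227, 207 and 208 TPM (214 ± 10.96), 3.39-fold to 3.54-fold above Vldlr within libraries. Dab1, the adaptor that relays reelin signals from Vldlr in neurons, was at 4.54, 2.88 and 4.09 TPM (3.84 ± 0.862). Lrpap1, the chaperone that keeps new LDL family receptors free of ligand, was at 116 ± 0.775, and the endocytic adaptor Dab2 at 59.1 ± 2.91 TPM.

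Among other scavenger receptors, 6 of 11 measured genes were above and 3 below 1 TPM (78.4% and 17.8% of all genes tested). Scarb2, the lysosomal relative of Scarb1, was at 141 ± 2.35 TPM and its values overlapped those of Scarb1. Scara5 and Colec12, of the class A type, were at 49.3 ± 2.13 and 42.4 ± 1.74 TPM. Msr1, a macrophage scavenger receptor, was at 1.31 ± 0.307 TPM and passed in neither direction (limma adjusted p = 0.0721), and Marco, another, had no count. Cd36, the fatty acid and oxidised LDL receptor that is the other well-known class B member, had 2, 1 and 1 counts. Stab1 was not used here.

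Of the cholesterol exporters, Abca1 was high and Abcg1 close to 1 TPM. Abca1, which hands cholesterol and phospholipid to apolipoproteins poor in lipid, was at 290, 267 and 272 TPM in replicates 1, 2 and 3 (276 ± 11.9). Abcg1, which passes cholesterol on to HDL particles, was at 1.38, 1.40 and 1.32 TPM (1.37 ± 0.0439) from 36, 34 and 32 counts. Abca1 was 191-fold to 210-fold above Abcg1 within libraries. By limma, Abcg1 stood 0.24 ± 0.07 (SE) above 1 TPM on the log2(TPM + 1) scale, with an adjusted p of 0.0107, and edgeR on the counts gave an adjusted p of 0.0076. Without replicate 2 the limma adjusted p was 0.0534, and over all alternatives at the same 1 TPM level it ranged from 0.00133 to 0.0534. The exact Poisson interval of its count included 1 TPM in each library, from 0.967 to 1.91 TPM in replicate 1. In rn6, Abca1 (313210) has 49 listed exon blocks at chr5:69860747-69952466 on the minus strand, and Abcg1 (85264) has 15 at chr20:9743269-9840489 on the plus strand.

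Of 13 other measured ABC lipid transporters, 10 were above and 2 below 1 TPM (78.4% and 17.8% of all genes tested). Abcd3, a peroxisomal fatty acid transporter, was the highest at 88.4 ± 4.21 TPM, followed by Abca2, a sterol transporter of the endosome and lysosome known from oligodendrocytes, at 82.9 ± 1.95, and by the phospholipid exporter Abcb4 at 20.5 ± 0.704 TPM. Abcg4, the close relative of Abcg1 that is known from brain, was at 3.87 ± 0.288 TPM, 2.64-fold to 3.19-fold above Abcg1 in the same library. Abca4 was at 0.954 ± 0.142 TPM and passed in neither direction. None of these transporters reached 100 TPM in each library, as Abca1 did. Abca3, Abca6, Abca8, Abca9 and Abca12 were not used here.

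The proteins that remodel particles outside the cell were also far apart. Pltp, which moves phospholipid between lipoproteins and so shapes HDL, was at 313, 340 and 347 TPM in replicates 1, 2 and 3 (333 ± 17.7). Lpl, the lipase that frees fatty acids from the triglyceride of particles, was at 2.28, 2.21 and 2.97 TPM (2.49 ± 0.423) from 51, 46 and 62 counts. The counting intervals of these 3 Lpl values overlapped, so the higher value of replicate 3 is not distinguishable from counting error. Lpl stood 0.79 ± 0.09 (SE) above 1 TPM on the log2(TPM + 1) scale by limma, with an adjusted p of 7.37e-05. Pltp was 117-fold to 154-fold above Lpl within libraries. Of the 2025 bases of Pltp (296371, chr3:161304469-161322289 in rn6, minus strand), 159 overlap exons of Ctsa on the plus strand. Ctsa, the gene of a lysosomal protease, was at 464, 482 and 474 TPM, and without a stated strand setting reads of the overlap cannot be assigned, which makes the level of Pltp uncertain. No other of the 9 genes overlaps listed exons of another gene. Lpl (24539) is at chr16:22537687-22561487 on the minus strand.

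In the list of other lipases and transfer proteins, 6 of 12 measured genes were above and 3 below 1 TPM (78.4% and 17.8% of all genes tested). Sel1l, which works with Lmf1 in the folding of lipoprotein lipase, was at 127 ± 2.24 TPM, the Lmf1 relative Lmf2 at 80.5 ± 0.36 and the lysosomal acid lipase Lipa at 61.2 ± 3.42 TPM. Lipc, the hepatic lipase, and Gpihbp1, the endothelial anchor of lipoprotein lipase, had no count. Cetp, Lmf1 and Angptl8 were not used here.

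For sterol handling inside the cell, most listed genes were above 1 TPM, as were 78.4% of all genes tested. Of 16 genes of transport and ester storage, 13 were above and 1 below 1 TPM, with Npc2, which carries cholesterol within the lysosome, at 527 ± 9.07, the esterifying enzyme Soat1 at 170.2 ± 3.85 and the carrier Scp2 at 153 ± 5.30 TPM. Soat1 stood 12.0-fold to 14.8-fold above Nceh1, which frees cholesterol from esters again. Star was at 0.704, 0.756 and 2.77 TPM and passed in neither direction, and the intestinal transporter Npc1l1 had no count. Of 14 sensing factors, 13 were above 1 TPM, among them the sterol-responsive factor Srebf2 at 182 ± 6.80 TPM and Nr1h2, which encodes LXR-beta, at 99.0 ± 1.54 TPM. Nr1h2 exceeded Nr1h3, which encodes LXR-alpha, by 5.29-fold to 6.01-fold, and the bile acid receptor Nr1h4 had no count.

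**Figure D2:**
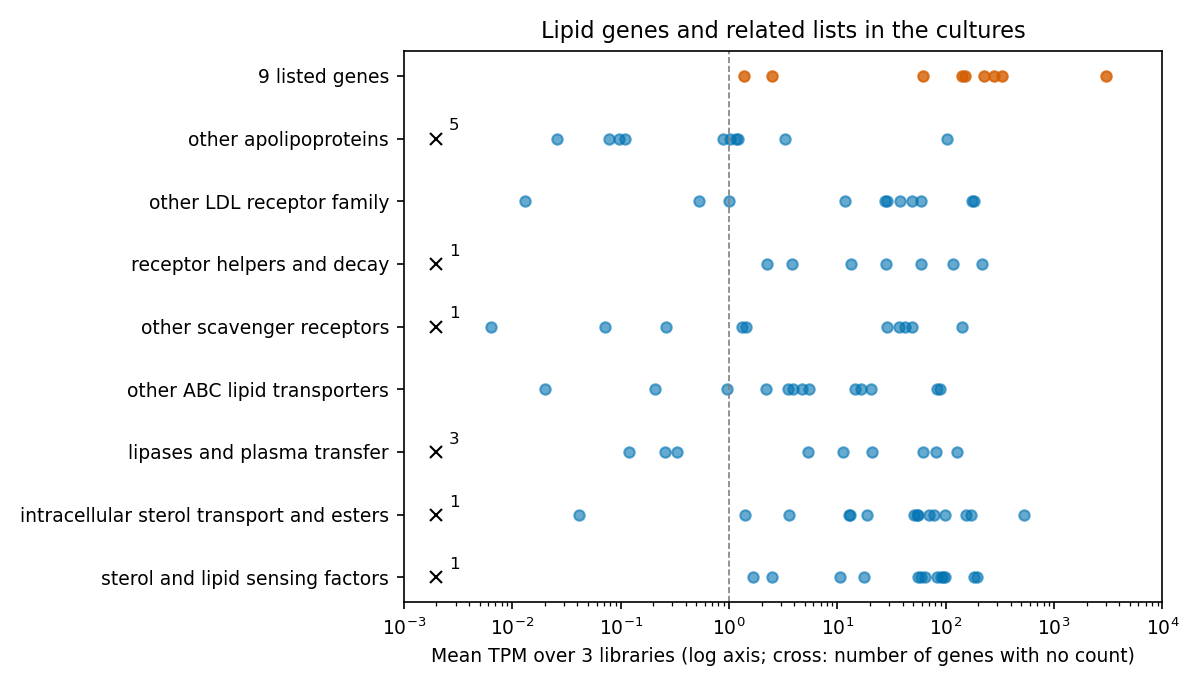
Mean TPM over 3 libraries on a log axis of the 9 genes (top row) and of each gene in the 8 related lists, with the dashed line at 1 TPM and a cross for genes with no count, whose number stands beside it. The 9 genes run from 1.37 TPM for Abcg1 to 2985 TPM for Apod, and the other apolipoproteins have 5 genes without a count.

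Over the 8 lists, 65 of the 88 genes with a count were above 1 TPM by limma, or 73.9%, against 78.4% of all genes tested, so the share above is near the background. A further 15 were below and 8 passed in neither direction, and 12 of the 100 measured genes had no count. In each library, 11 of the 100 were at 100 TPM or more, against 11.7% of all listed genes.

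By mean TPM the 9 genes ran in the order Apod, Pltp, Abca1, Apoe, Lrp1, Scarb1, Vldlr, Lpl and Abcg1. The library values did not overlap between neighbours in any of the 8 pairs. The order was set from the same values, so this is a description, and an exact two-sided sign-flip permutation test over 3 libraries cannot go below p = 0.25, which it gave for each pair. Some steps were small. Lrp1 exceeded Scarb1 by 1.17-fold in replicate 1 but by 1.03-fold and 1.02-fold in replicates 2 and 3, so that the mean log2 ratio of 0.10 was smaller than its SD of 0.11, and it was 0.04 without replicate 1. Pltp exceeded Abca1 by 1.08-fold in replicate 1 and by 1.27-fold and 1.28-fold in the other two, and Abca1 exceeded Apoe by 1.18-fold to 1.27-fold. The overlap with Ctsa leaves the level of Pltp, and so its place above Abca1, uncertain. The large steps were Apod over Pltp, 8.63-fold to 9.37-fold, and Vldlr over Lpl, 20.6-fold to 28.1-fold.

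Between libraries the genes varied little. The highest library exceeded the lowest by 1.03-fold for Apod and Apoe, 1.05-fold for Scarb1, 1.06-fold for Vldlr and Abcg1, 1.08-fold for Abca1, 1.09-fold for Lrp1, 1.11-fold for Pltp and 1.35-fold for Lpl. Over the 8372 genes with a mean of 10 TPM or more the median was 1.08-fold. Counting intervals overlapped across all 3 libraries for 5 genes, and did not for Apod, Pltp, Abca1 and Lrp1, which had the deepest counts. Without replicate 1, the ratio of the remaining libraries was 1.003 for Scarb1, 1.007 for Lrp1, 1.01 for Apod, 1.017 for Abca1 and Vldlr and 1.021 for Pltp, while it was 1.029 for Apoe, 1.064 for Abcg1 and 1.347 for Lpl. For these last genes replicate 3 was the one farther from the others, and without it the ratio was 1.005 for Apoe, 1.014 for Abcg1 and 1.032 for Lpl.

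Replicate 1 was the library farthest from the others for Lrp1, Abca1, Vldlr, Apod, Scarb1 and Pltp. Against the mean of replicates 2 and 3, its TPM was 1.09-fold for Lrp1, 1.07-fold for Abca1 and 1.05-fold for Vldlr, but 0.975-fold for Apod, 0.956-fold for Scarb1 and 0.913-fold for Pltp. Gene length moved with this. Over all genes with a mean of 10 TPM or more, the median of the same ratio was 0.996 for the 834 genes under 1000 bases, 1.01 for the 3267 genes of at least 2000 and under 4000 bases, 1.03 for the 1193 genes of at least 4000 and under 8000 bases and 1.06 for the 131 genes of 8000 bases or more. In the longest class 86.3% of genes were higher in replicate 1, where replicates 2 and 3 differed by a median ratio of 1.004. Pltp and Scarb1 lay below the quartile range of their length class, and Abca1 and Vldlr lay above that of theirs. The part of gene length in the differences of the 9 genes was not tested.

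**Figure D3:**
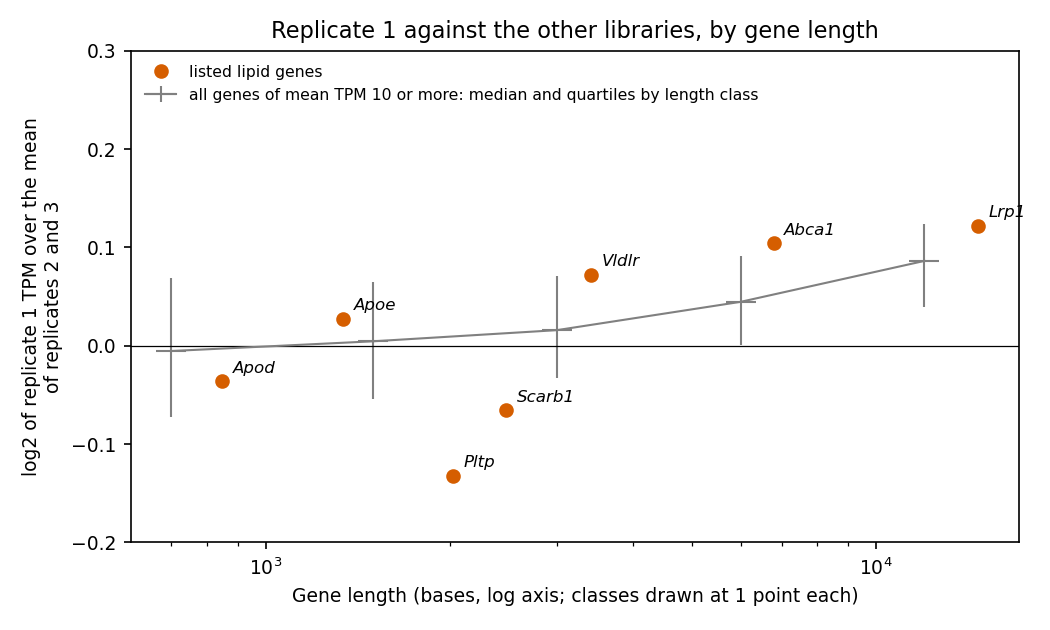
The log2 ratio of TPM in replicate 1 to the mean of replicates 2 and 3 against gene length in bases on a log axis, for the 7 genes with a mean of 10 TPM or more (points) and for all genes of that level by length class (grey median and quartiles). The grey median climbs to 0.09 in the longest class, where Lrp1 lies at 0.12, while Pltp lies at -0.13.

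Several cell types in a ganglion preparation could supply these transcripts, so their markers were read in the same libraries. Of all genes tested, 78.4% were above 1 TPM by limma, so a count of markers above that level says little alone. All 10 Schwann cell precursor markers were above 1 TPM, with Ednrb and Ngfr highest at 1414 ± 16.7 and 655 ± 20.7 TPM, and their sum was 3930 to 4011 TPM. Of 10 fibroblast markers 9 were above, with a sum of 8557 to 8763 TPM led by Col1a1 and Col3a1. All 7 satellite glia markers were above, with a sum of 1098 to 1116 TPM with Gja1 at 198 ± 3.53 TPM, and all 9 measured sensory neuron markers, with a sum of 629 to 651 TPM led by Tubb3 and Prph (Pou4f1 was not used here). Fibroblasts and satellite glia are known to express several of the 9 genes, Apod and Apoe among them, and the part of these cells in the levels was not tested.

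Markers of other cell types had lower sums. Of 12 macrophage markers 7 were above and 4 below 1 TPM (78.4% and 17.8% of all genes tested), but their sum was 36.7 to 41.1 TPM, led by Lyz2 and Tyrobp. The part of macrophages in the level of Apoe was not tested. Ptprc, the common leukocyte antigen, was at 0.316 ± 0.0756 TPM. Of 8 endothelial markers 4 were above and 3 below 1 TPM (78.4% and 17.8% of all genes tested). Their sum was 37.7 to 39.2 TPM, led by Cdh5 and Emcn. Kdr, Tie1 and Pecam1 were below at 0.178, 0.086 and 0.0693 TPM, and Cldn5 had no count. Of 8 adipocyte markers, which include Lpl of the 9 genes, 3 were above and 1 below 1 TPM (78.4% and 17.8% of all genes tested). Lpl, Pparg and Cfd were above, Fabp4 at 0.763 TPM passed in neither direction, and Cidec was below at 0.087 TPM. Adipoq, Plin1 and Lep had no count. Of 8 hepatocyte markers, which include Apoa1 and Apoc3 of the apolipoprotein list, Tf was above at 3.06 ± 0.146 TPM, Ttr followed at 1.20 ± 0.697, and Fgb, Ahsg and Apoc3 had no count.

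**Figure D4:**
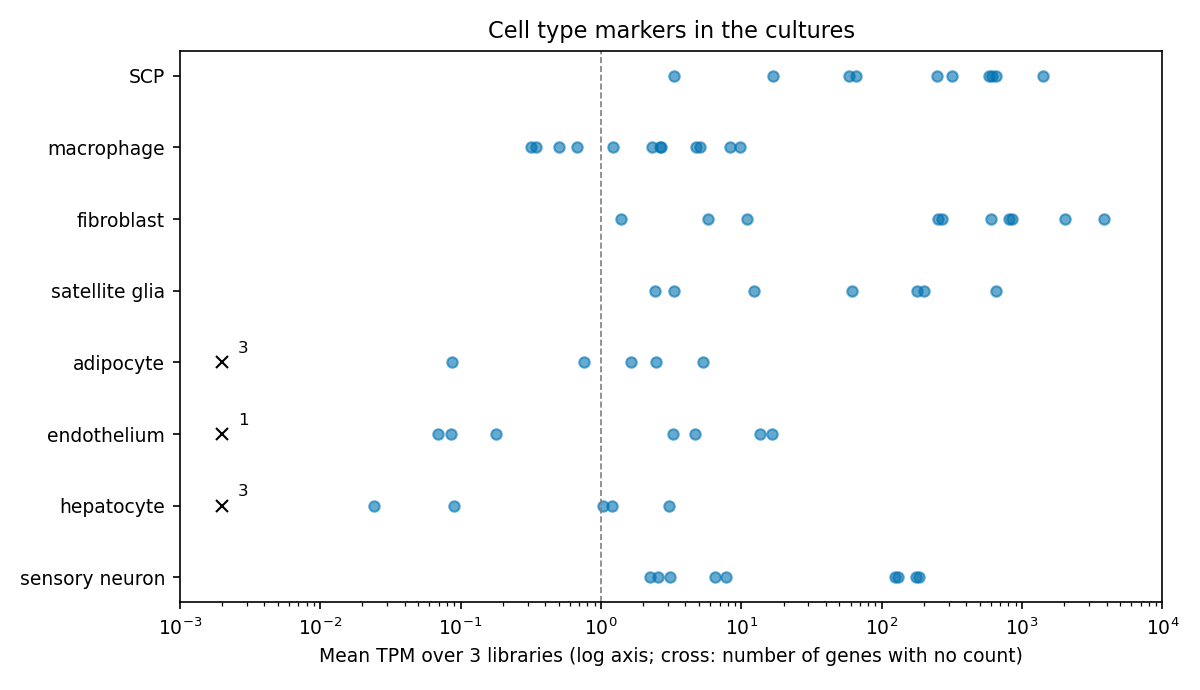
Mean TPM over 3 libraries on a log axis of each marker gene by cell type, with the dashed line at 1 TPM and a cross for genes with no count, whose number stands beside it. Schwann cell precursor (SCP) and fibroblast markers reach over 1000 TPM, with the lowest at 3.32 and 1.38 TPM, and no macrophage marker is above 9.85 TPM.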

How the data were processed

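The authors deposited 1 table with raw counts per gene, gene lengths, counts over length (a signal not used further) and TPM. The submitters' processing notes list STAR 2.5.2b, Subread and rn6, and the labels a stranded mRNA kit. The annotation used, the strand setting and how multi-mapping reads were handled: not given in the sources used here. Deposited TPM were within 0.0005 TPM of values computed from the counts and lengths. Left out were 2 rows without a gene name and 6 columns of totals.

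Log2(TPM + 1) was tested against 1 TPM in 13345 genes with a count, by limma 3.58.1 (R 4.3.3; a one-sample moderated test, trend fitted, two-sided; Benjamini-Hochberg threshold 0.05). In simulated data with 13122 genes, limma called 40 of 40 genes above at 2 TPM, 39 of 40 below at 0.5 TPM and 4 of 40 in either direction at 1 TPM. Intervals are exact Poisson at 95%. Alternatives used edgeR 4.0.16 on counts, with an offset for gene length, and DESeq2 1.42.0 size factors. The 9 genes, the 8 pathway lists and the 8 marker lists were chosen with earlier results of these data known, and gene ratios outside the order were picked after values were seen. Named genes are the 3 highest of a pathway list and the 2 highest of a marker list, all with no count and, in pathway lists, those passing in neither direction. Genes named for their role (Apom, Cd36, Dab1, Abcg4, Nceh1, Nr1h3, Ptprc, Lpl, Pparg, Cfd) and the lowest fibroblast markers (Dpt, Pi16, Mfap5) were added after their values were seen. So were the endothelial markers below 1 TPM (Kdr, Tie1, Pecam1) and the adipocyte markers Fabp4 and Cidec. A few genes falling under these rules are not reported here.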

Additional observations from a re-analysis of the deposited data

How the results depend on the processing

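All 9 genes stayed above 1 TPM with pseudocounts of 0.1 and 0.5, with no filter, with a filter at a mean of 0.1 TPM, without the trend, by edgeR on counts and after TMM scaling. Leaving out a library gave 8 to 9, Abcg1 being lost without replicate 2. Against a level of 5 TPM in place of 1, 7 were above, and Lpl and Abcg1 turned to -0.79 and -1.34 (log2). The pathway genes above 1 TPM numbered 64 to 66 under these alternatives, 72 against 0.5 TPM and 52 against 5 TPM. Pathway genes below numbered 27 with no filter, 7 with the filter and 33 against 5 TPM, in place of 15, and all genes below 6235, 1372 and 3836 in place of 2374, since these settings change which silent genes are tested or the level. Those in neither direction were 2 at 0.5 TPM and 3 at 5 TPM, in place of 8. The largest ratio between libraries, that of Lpl, was 1.35 under TMM and DESeq2 scaling, and the largest for any of the genes was 1.085 to 1.347 when a library was left out. The median percentile of the 9 genes was 92.1 among all listed genes and 87.3 among genes at 1 TPM or more. With 1 TPM added to each gene the log2 ratio of Vldlr to Lpl was 4.18 in place of 4.65, and that of Lpl to Abcg1 0.55 in place of 0.85. No paired analysis was possible because the libraries form a single group. Depth limits Lpl and Abcg1, with 159 and 102 counts in all.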

Other observations

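Pnpla2, the adipose triglyceride lipase, was at 0.255 ± 0.0408 TPM (n = 3) and was called below 1 TPM by limma. The table lists its 9 exon blocks at 2 places in the genome, and the handling of reads that match both is not stated, so its level is uncertain. None of the 9 lipid genes described above has exon blocks repeated in this way. Pnpla2 was picked once its level was known.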
